A study of Mus musculus with 5 samples.

Results

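DNA replication and mitosis genes were examined as 1 module of 37 genes across 5 Tag-seq libraries of the embryonic mouse heart. The 37 genes were taken from a list of genes known to act in DNA replication, S phase or mitosis. This rule uses no expression value, but the list was chosen with earlier results of these data known. They are 37 of the 13486 genes that had at least 1 tag in any library, and all 37 had tags in all 5 libraries. The genes were grouped by role into 10 that license origins or form the replicative helicase, 8 that act at the fork or supply nucleotides, 7 cyclins and cyclin-dependent kinases, 8 mitotic kinases, checkpoint proteins and passenger proteins, and 4 that act at the spindle, kinetochore or chromosome surface.

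All tissue was from embryonic day 10.5 (E10.5). The 4 wild-type libraries were from C57BL/6 embryos, for which the methods name C57BL/6J females. They covered the atrio-ventricular canal (AVC), the outflow tract (OFT), the atria and the ventricles. The AVC and OFT hold the endocardial cushions, the swellings from which valves form, whereas the atria and ventricles are the chambers. The fifth library was *Twist1* null AVC, hereafter the null, and its embryos had an ICR background. It carries a constitutive loss of *Twist1*, a basic helix-loop-helix factor of cushion mesenchyme. Each library was made from tissue pooled over several embryos, with fewer embryos in the *Twist1* null pool, and there was 1 library per condition. Every test below therefore compares libraries and not conditions, and strain and genotype cannot be told apart in the *Twist1* null comparison.

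Replication starts when origins are licensed in G1. ORC, CDC6 and CDT1 load the ring of MCM2 to MCM7, geminin blocks a second loading, and the ring then unwinds DNA ahead of primase, the clamp PCNA and the polymerases. Cyclin E and cyclin A with CDK2 drive S phase, and cyclin B with CDK1 drives entry into mitosis. In mitosis aurora and polo kinases build the spindle, the BUB proteins hold anaphase until chromosomes are attached, and CDC20 releases it. Most of these genes are transcribed between late G1 and mitosis, so their transcripts mark cycling cells, and in the E10.5 heart myocardium, endocardium, cushion mesenchyme and primitive red cells all divide.

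Tag-seq counts 21-base tags next to NlaIII sites (CATG) of polyadenylated transcripts. Levels are given as TPM, tags scaled to a total of 1000000 high quality (HQ) tags per library, where HQ tags are those of tag types seen more than 5 times. The libraries held 6075421 HQ tags (AVC), 5267618 (OFT), 4666514 (atria), 4223810 (ventricles) and 12977237 (null). The smallest count listed for a tag type was 6, which corresponds to 0.988, 1.14, 1.29, 1.42 and 0.462 TPM in the same order. Intervals are 95% and cover counting error only, since tags are PCR copies without molecular identifiers and no library was replicated.

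*Twist1* was read at 918 TPM (AVC), 299 (OFT), 63.4 (atria), 55.9 (ventricles) and 4.55 (null). The null library thus held *Twist1* at 0.495% of the wild-type AVC level, a log2 ratio of -7.65 (202-fold lower, adjusted p = 3.39e-11, edgeR exact test). The region labels were checked against marker lists. The 3 AVC markers *Tbx2*, *Tbx3* and *Bmp2* summed to 331 TPM (AVC), 50.5 (OFT), 11.8 (atria), 0 (ventricles) and 193 (null). Of the OFT markers, *Isl1* was at 72.9 TPM in the OFT and at most 3.08 TPM elsewhere, and *Rgs5* at 178 TPM and at most 6.86 TPM. Of the 3 ventricle markers, *Myl2* reached 6196 TPM in ventricles and 1807 TPM in OFT. The other two went against the label, with *Irx4* at 27.2, 8.54, 0, 2.84 and 18.3 TPM and *Hand1* at 65.8, 123, 0, 22.5 and 77.2 TPM in the order AVC, OFT, atria, ventricles and null. Of the 3 atrial markers, *Nr2f2* was at 190.1 TPM in the atria and at most 76.7 TPM elsewhere. The other two were not highest in the atria, with *Nr2f1* at 21.6 TPM there and 32.9 TPM in AVC, and *Sln* at 1.29 TPM there and 1.71 TPM in OFT.

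The libraries also differed in cell content and in the composition of their tags. Of the 8 erythroid markers 7 had tags in every library and *Ahsp* was at 0 in all 5. They summed to 2426 TPM (AVC), 3083 (OFT), 215379 (atria), 46723 (ventricles) and 27354 (null), and *Hbb-y*, an embryonic beta globin, was the most abundant of them in the last 3. All 7 cushion mesenchyme markers had tags in every library except *Snai2*, which was at 0 in the atria. They summed to 2652, 3309, 179.6, 180.9 and 712 TPM in the same order, with *Col3a1* the most abundant in the 4 wild-type libraries and *Vcan* in the null. The 8 cardiomyocyte markers, all with tags in every library and led by *Actc1*, summed to 19281, 20967, 7448, 16401 and 17276 TPM. *Actc1* alone was 84.5% of the ventricle sum and 32.6% of the AVC sum, and 5 of the 8 markers were called higher in the AVC than in the chambers, with a median log2 ratio of 2.77, beside 35.6% and 1.23 for all genes. With TMM normalization 4 were called and the median was 1.81, beside 19.4% and 0.28. *Tnnt2*, for example, was at 3978 TPM (AVC) and 453 TPM (ventricles), and *Ttn* at 607 TPM and 31.7 TPM. The 7 endothelial and endocardial markers summed to 424, 477, 179.6, 243 and 492 TPM in the AVC, OFT, atria, ventricles and null. The 5 epicardial markers summed to 261, 85.6, 290, 241 and 167 TPM in the same order. The mean GC content of tags was 42.6% in AVC and 42.0% in OFT against 38.6% in atria, 38.3% in ventricles and 40.2% in *Twist1* null AVC. Tags that begin with T made up 13.6% and 14.98% of the AVC and OFT tags, and 32.1%, 22.2% and 32.4% of those of the atria, the ventricles and the *Twist1* null AVC. These differences move with the comparisons below, and except where a value is given beside a result their part in it was not tested. Fewer cells of a type and less RNA per cell cannot be told apart in such tissue.

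The summed level of the 37 genes was 3655 TPM (AVC), 3570 (OFT), 3425 (atria), 4723 (ventricles) and 3394 (null). The sum was thus higher in the ventricles than in the other 4 libraries, which lay within a narrow range, but the genes behind it changed from library to library. *Cdk1*, *Mcm6* and *Rrm2* made up 10.6% of the summed tags in the AVC and 11.6% in OFT, against 53.4% in atria, 56.8% in ventricles and 32.7% in *Twist1* null AVC. Without these 3 genes, which were chosen after their values were seen, the other 34 summed to 3266 TPM (AVC), 3156 (OFT), 1596 (atria), 2042 (ventricles) and 2283 (null). On HQ totals the order of the AVC and the ventricles thus depended on 3 genes, and the order under another scaling was not tested. The log2 ratio of the sum in AVC to the summed chambers was -0.15 for the 37 genes and 0.85 for the 34, and with the shift that TMM normalization gives, chosen here after the data were seen, -1.10 and -0.10. Of the 37 genes, 10 were highest in the ventricles, 10 in *Twist1* null AVC, 9 in AVC, 6 in OFT and 2 in atria.

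**Figure D1:**
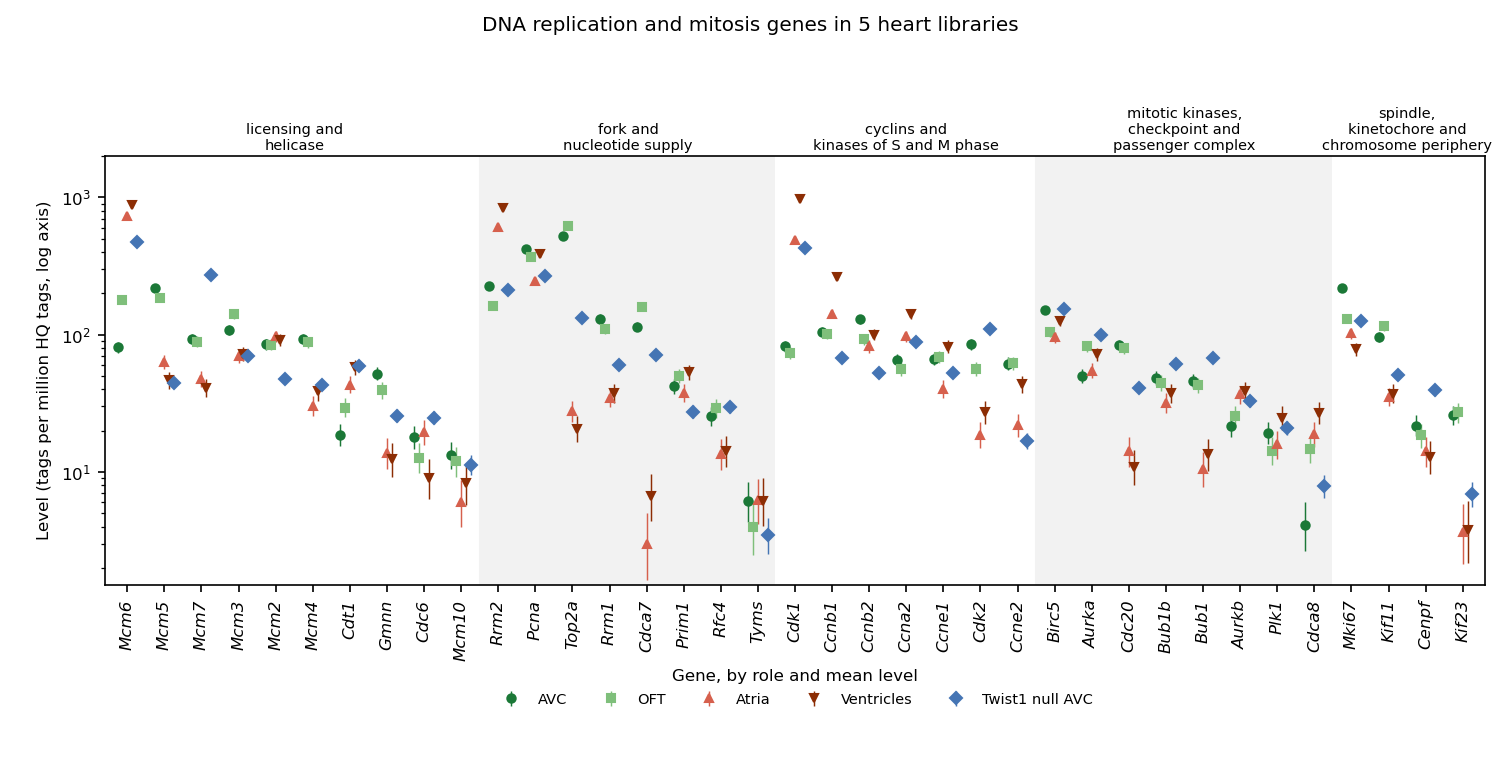
Level of each of the 37 genes in the 5 libraries, in TPM on a log axis, with genes grouped by role and ordered by mean level, and with bars for 95% counting intervals. *Mcm6*, *Rrm2* and *Cdk1* stand above all other genes in the atria and ventricles, *Top2a* and *Cdca7* are higher in the AVC and OFT than in both chambers, and 20 of the 37 genes range over more than 3-fold between libraries.

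The tag that carries a gene sets what is measured, so the most abundant tag of the 2 genes with the highest mean level in each role is printed here, with the NlaIII site in capitals.
Mcm6: CATGaaaataaaacaacttgt
Mcm5: CATGccttctcaacaagatga
Rrm2: CATGaactgacataaccctga
Pcna: CATGaatgtttctgctttaca
Cdk1: CATGtaaatattattccatat
Ccnb1: CATGcatatactcccaaggag
Birc5: CATGggtaagtgtggttatat
Aurka: CATGtatgcaaacttgttaaa
Mki67: CATGaggaagatcaccaggga
Kif11: CATGtatacggttcagagtga
All 10 lie in 3' untranslated regions of the GRCm38 annotation, and 7 of them at the NlaIII site nearest the transcript end. The *Mcm6* tag lies at chr1:128331597-128331617 (minus strand) and holds 3 G or C among its 17 variable bases. The *Mcm5* tag lies at chr8:75127531-75127551 (plus strand) and holds 7. The *Cdk1* tag lies at chr10:69338333-69338353 (minus strand), holds 2 G or C, and is at the 11th site from the end of the transcript model used. Over the 37 genes, the most abundant tag was at the last site for 30, in a 3' untranslated region for 30 and in coding sequence for 6, and it held over 80% of the tags of 27 genes.

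The MCM genes encode the helicase that opens DNA at origins and forks. *Mcm6* was read at 80.7 TPM (AVC), 179 (OFT), 736 (atria), 876 (ventricles) and 469 (null). *Mcm5* had another order, with 219 TPM (AVC), 185 (OFT), 63.6 (atria), 46.4 (ventricles) and 44.2 (null). *Mcm7* was at 92.8 TPM (AVC), 88.8 (OFT), 47.4 (atria), 41.0 (ventricles) and 272 (null). The proteins form a ring with 1 copy of each subunit, but their tags did not keep a common ratio. *Mcm6* held 11.9% (95% exact binomial interval 10.9 to 12.9) of all *Mcm2* to *Mcm7* tags in the AVC, 23.3% (22.05 to 24.7) in OFT, 70.5% (69.2 to 71.8) in atria, 75.2% (73.9 to 76.4) in ventricles and 49.6% (48.7 to 50.5) in *Twist1* null AVC. The share of *Mcm5* was 32.2% (30.8 to 33.7) in AVC and 4.67% (4.31 to 5.06) in null, and the share of *Mcm7* was 13.7% (12.6 to 14.8) and 28.7% (27.9 to 29.5).

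**Figure D2:**
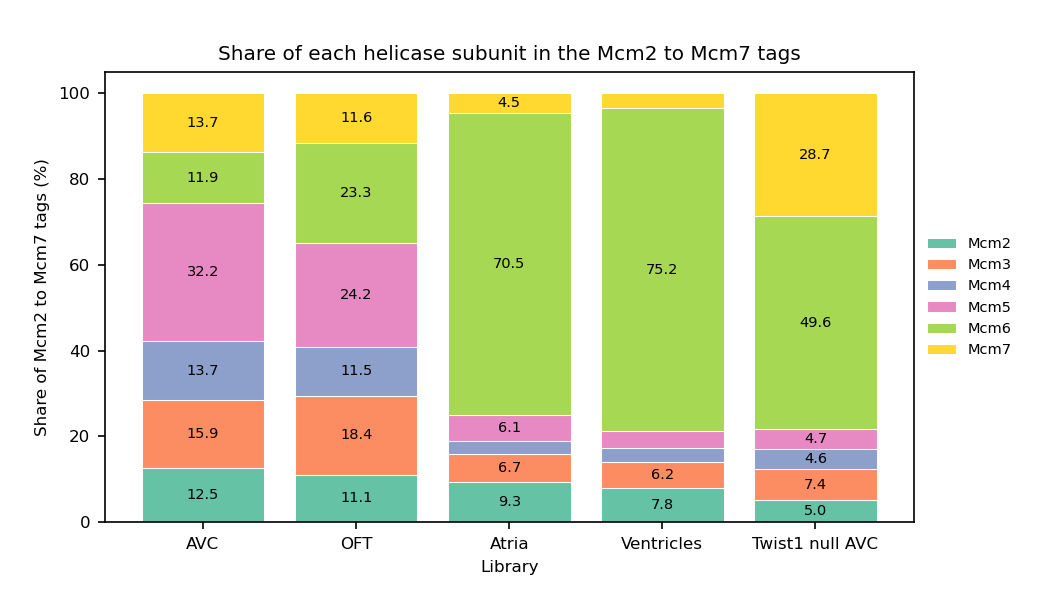
Share of each helicase subunit gene in the summed tags of *Mcm2* to *Mcm7*, as stacked bars in percent, for each library. No subunit exceeds 32.2% in AVC, whereas *Mcm6* takes 70.5% in atria, 75.2% in ventricles and 49.6% in *Twist1* null AVC.

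*Mcm2* varied least within the ring apart from *Mcm3*, at 84.9 TPM (AVC), 84.7 (OFT), 97.1 (atria), 91.1 (ventricles) and 47.7 (null). *Cdt1*, which brings the ring to origins, was at 18.6, 29.4, 43.3, 57.8 and 58.6 TPM in the same order. *Cdc6*, its partner in loading, was at 17.9, 12.7, 19.5, 8.997 and 24.9 TPM. *Cdt1* was thus lowest in the AVC and *Cdc6* lowest in the ventricles. On HQ totals neither was called by the exact test in any of the 5 comparisons. With TMM normalization *Cdt1* was called lower in the AVC than in the chambers. *Gmnn*, which encodes geminin, the inhibitor of CDT1, was at 52.0 TPM in AVC and 12.3 TPM in ventricles, the opposite order to *Cdt1*. *Mcm3*, *Mcm4* and *Mcm10*, a helicase activator, ranged between 6.00 TPM for *Mcm10* in atria and 140.5 TPM for *Mcm3* in OFT.

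Among the genes of the fork and of nucleotide supply, *Rrm2*, the regulated subunit of ribonucleotide reductase, was at 226 TPM (AVC), 162 (OFT), 604 (atria), 837 (ventricles) and 211 (null). *Rrm1*, the large subunit of the same enzyme, was instead higher in the AVC than in either chamber. It was at 131 TPM in AVC, 34.7 in atria and 37.6 in ventricles. *Pcna*, the sliding clamp, was at 423, 370.4, 247, 386 and 267 TPM in the AVC, OFT, atria, ventricles and null. *Pcna* thus differed by no more than 1.71-fold over the 5 libraries. *Top2a*, the topoisomerase that untangles replicated chromosomes, was at 526 TPM (AVC), 619 (OFT), 27.6 (atria), 20.6 (ventricles) and 132 (null). Its range over the libraries was 30.1-fold, and only *Cdca7*, a MYC- and E2F-responsive gene of chromatin, had a wider range among the 37 genes, at 52.6-fold between 158 TPM in OFT and 3.00 TPM in atria.

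*Prim1*, a primase subunit, was at 42.1, 49.9, 37.5, 53.0 and 27.5 TPM, and *Rfc4*, a subunit of the clamp loader, stayed between 13.5 and 29.5 TPM. *Tyms*, which encodes thymidylate synthase, was at 6.09, 3.99, 6.21, 6.16 and 3.47 TPM. This value leaves out its most abundant tag, which also matches the pseudogene *Tyms-ps* and was read at 241 TPM (AVC), 375 (OFT), 357 (atria), 273 (ventricles) and 118 (null). The level of *Tyms* is therefore uncertain.

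Of the cyclins and their kinases, *Cdk1*, the mitotic kinase, was at 82.3 TPM (AVC), 73.7 (OFT), 489 (atria), 969 (ventricles) and 431 (null). *Ccnb1*, a cyclin B partner of CDK1, was at 105.01 TPM (AVC), 101 (OFT), 142 (atria), 265 (ventricles) and 67.3 (null). Its higher chamber level rests on its most abundant tag, with a log2 ratio of -1.29 for the AVC over the chambers. The other main *Ccnb1* tags had ratios of 1.89 and 0.12. *Ccnb2*, the other mitotic cyclin B gene of the list, was at 129, 92.6, 82.1, 100.1 and 52.1 TPM. Both cyclin B genes were lowest in the null library, in which *Cdk1* was more than 5 times its wild-type AVC level. That *Cdk1* difference rests on its main tag and turns without it, as given with the tags below. *Ccna2*, cyclin A2, was at 65.0, 56.4, 97.7, 140.4 and 88.0002 TPM, and was thus high in the same chamber libraries as *Cdk1*. Of the main *Ccna2* tags only the most abundant was higher in both chambers than in the AVC, as given with the tags below. *Cdk2*, the S-phase kinase, was at 84.8 TPM in AVC, 18.6 in atria, 27.2 in ventricles and 110.1 in null, whereas its cyclin E partners *Ccne1* and *Ccne2* stayed between 16.9 and 81.9 TPM.

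Among the mitotic kinases, checkpoint and passenger genes, *Birc5*, which encodes survivin of the chromosomal passenger complex, was at 150.4 TPM (AVC), 104.6 (OFT), 95.6 (atria), 126 (ventricles) and 155 (null). *Aurka*, the spindle pole kinase, was at 49.9, 82.0, 54.6, 71.7 and 99.1 TPM. *Aurkb*, the kinase of the passenger complex, was at 21.6, 25.4, 36.6, 39.1 and 33.0 TPM, and *Plk1* at 19.3, 14.2, 15.9, 24.9 and 20.9 TPM. None of these 4 genes was called by the exact test in any comparison, whereas with GC correction *Aurkb* was called lower in the AVC and *Plk1* lower in the OFT than in the chambers. The most abundant *Aurkb* tag was at 18.4 TPM in AVC, 20.4 in atria and 15.6 in ventricles. The higher *Aurkb* level of the chambers came from another tag, at 0, 14.8 and 20.6 TPM in the same order. Only 12 of its 21 bases lie in the annotated transcript, and the rest match adenines added to the transcript end. Without tags that begin with T the exact test called *Aurka* higher in the AVC and the OFT than in the chambers (log2 ratio 10.24 and 11.10, adjusted p = 6.44e-08 and 1.75e-09), and *Plk1* likewise (6.87 and 6.76, adjusted p = 0.00999 and 0.0128). The chambers then held no tag of either gene, so the size of these ratios depends on the prior count. *Cdc20*, the activator of the anaphase-promoting complex, stood lower in the chambers, with 84.4 TPM (AVC), 79.5 (OFT), 14.1 (atria), 10.9 (ventricles) and 41.1 (null). *Cdca8*, which encodes borealin of the passenger complex, was at 4.11, 14.6, 18.9, 27.0 and 7.86 TPM, so that 3 genes of 1 complex, *Birc5*, *Aurkb* and *Cdca8*, did not share an order.

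At the spindle and chromosome surface, *Mki67*, the source of the Ki-67 antigen, was at 218 TPM (AVC), 131 (OFT), 102 (atria), 78.1 (ventricles) and 125 (null). *Kif11*, the kinesin that separates spindle poles, was at 96.5, 116, 35.1, 37.2 and 50.6 TPM. *Cenpf*, a kinetochore protein, was at 21.7, 18.4, 14.1, 12.8 and 39.3 TPM, and *Kif23*, a kinesin of cytokinesis, at 26.0 TPM in AVC, 27.1 in OFT and 6.86 or less in the other 3 libraries. All 4 were higher in the AVC and OFT than in either chamber, but only *Kif23* was called on HQ totals. Their median log2 ratios to the chambers were 1.34 (AVC) and 1.10 (OFT), beside 1.23 and 1.07 over all genes. The genes of this role and the mitotic kinases, checkpoint and passenger genes were summed and set against the replication roles. They held 25.7% of the tags of all these roles in the AVC, 22.9% in OFT, 17.1% in atria, 15.6% in ventricles and 27.5% in null. Without *Mcm6* and *Rrm2*, left out after their values were seen, the shares were 28.6% (AVC), 25.7% (OFT), 36.3% (atria), 34.9% (ventricles) and 37.3% (null), so the order of the AVC and the chambers turned. Both sets of shares leave out the cyclins and kinases, and with them *Cdk1*, *Ccnb1* and *Ccnb2*. *Cdk1* alone made up 2.25% of the tags of the 37 genes in the AVC, 14.3% in atria and 20.5% in ventricles. The order of the AVC and the chambers thus also depends on this choice of roles.

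The first comparison asked whether the genes differed between the AVC and the summed atria and ventricles. In the AVC library 9 of the 37 genes were called higher (*Mcm5*, *Gmnn*, *Top2a*, *Cdca7*, *Rrm1*, *Cdk2*, *Bub1*, *Cdc20* and *Kif23*) and 3 lower (*Mcm6*, *Cdk1* and *Cdca8*), at an adjusted p under 0.05 in the two-sided edgeR exact test with the dispersion of 0.12 that the methods give. Over all 12503 genes tested, 41.1% were called, 35.6% higher and 5.53% lower, beside 24.3% and 8.11% of the 37. Of these 12503 genes, 1798 (14.4%) were at 0 in the chambers and 588 at 0 in the AVC, where the fitted ratio is set in size by the prior count, whereas all 37 had tags on both sides. Over the 10117 genes with tags on both sides, a restriction chosen after the data were seen, 29.0% were called higher and 4.04% lower. The median log2 ratio of the 37 genes was 0.51, against 1.23 for all genes, and 25 of the 37 lay below the median of all genes. Against the genes with tags on both sides, whose median was 0.99, 24 of the 37 lay below. TMM normalization moved every ratio of this comparison by -0.95, after which the median of the 37 genes was -0.44 and that of all genes 0.28, with 2 genes called higher and 7 lower beside 19.4% and 11.9% of all genes. The sign of the median over the 37 genes thus turned with the scaling. The median of the 37 lay -0.72 from that of all genes and -0.48 from that of genes with tags on both sides, and with GC correction these distances were -0.40 and -0.16.

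*Top2a* and *Cdca7* led the genes higher in the AVC. *Top2a* was 21.7-fold higher in the AVC than in the chambers (log2 ratio 4.44, interval 4.24 to 4.64, adjusted p = 2.88e-06, exact test). *Cdca7* was 24.1-fold higher (log2 ratio 4.59, interval 4.14 to 5.08, adjusted p = 2.51e-06, exact test). Of the genes with tags on both sides, 1.97% and 1.58% had higher ratios than these 2. The shares were 16.0% and 15.7% over all genes, which count those at 0 in the chambers. The other 7 genes called higher had log2 ratios between 1.86 for *Rrm1* and 2.80 for *Kif23*, and none of these 7 was called after TMM normalization.

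*Mcm6* and *Cdk1* led the genes lower in the AVC. *Mcm6* was 9.95-fold higher in the chambers (log2 ratio -3.31, interval -3.45 to -3.18, adjusted p = 0.000243, exact test), and *Cdk1* was 8.71-fold higher (log2 ratio -3.12, interval -3.26 to -2.99, adjusted p = 5.00e-04), a ratio that rests on 1 tag and turns when that tag is left out, as given with the tags below. Of the genes with tags on both sides, 99.5% and 99.3% had higher ratios than these 2, and of all genes 94.9% and 94.7%. *Cdca8* was 5.52-fold higher in the chambers (log2 ratio -2.46, adjusted p = 0.00975, exact test) on a level of 4.11 TPM in the AVC. With TMM normalization *Ccna2*, *Ccnb1*, *Cdt1* and *Rrm2* were also called lower. For *Ccna2* and *Ccnb1* only the most abundant tag was lower in the AVC on HQ totals, and their other main tags had positive ratios. With totals that leave out haemoglobin tags, 6 genes were called higher and 4 lower, beside 31.8% and 6.77% of all genes. Against the ventricles alone, which hold less haemoglobin than the atria, 7 were called higher and 4 lower, beside 33.5% and 5.99% of all genes.

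**Figure D3:**
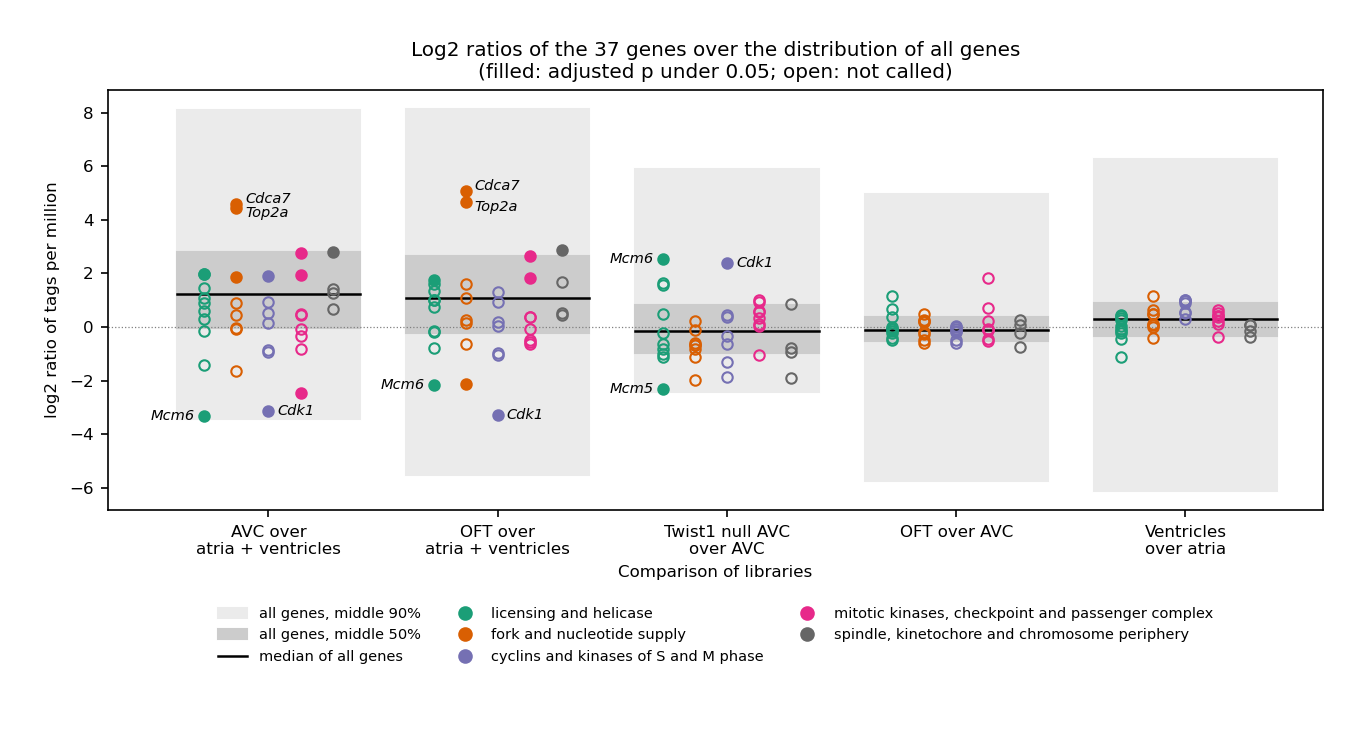
Log2 ratio of each gene in 5 comparisons of libraries (filled points, adjusted p under 0.05), coloured by role, over the middle 50% and 90% and the median (black line) of the fitted ratios of all genes tested, genes at 0 in a library included. In the comparisons with the chambers most of the 37 genes lie below the median of all genes of 1.23 and 1.07, with *Top2a* and *Cdca7* above it and *Mcm6* and *Cdk1* near the bottom.

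The OFT gave 6 genes higher than the chambers (*Mcm5*, *Top2a*, *Cdca7*, *Bub1*, *Cdc20* and *Kif23*) and 3 lower (*Mcm6*, *Cdk1* and *Rrm2*). Of all 12451 genes tested, 40.9% were called, 34.1% higher and 6.77% lower, beside 16.2% and 8.11% of the 37. This comparison shares both chamber libraries with that of the AVC, so the calls are not independent of it. The median log2 ratio of the 37 genes was 0.39 against 1.07 for all genes, and after a TMM shift of -0.86 it was -0.47 against 0.21, with 3 genes called higher and 5 lower beside 20% and 12.2% of all genes. The distance between the medians was -0.68, and -0.29 with GC correction, and it was -0.49 and -0.09 against the 9956 genes with tags on both sides. Of 18 other settings the *Mcm5* call was lost under 10 and the *Bub1* call under 8, and that of *Cdc20* under 5 of 17, TMM normalization and GC correction among them for each of the 3 genes. The *Kif23* call was lost under 2, and those of *Top2a* and *Cdca7* under 0. *Cdca7* was 33.4-fold higher in the OFT (log2 ratio 5.06, adjusted p = 3.63e-07, exact test) and *Top2a* 25.5-fold higher (log2 ratio 4.67, adjusted p = 1.00e-06, exact test). *Cdk1* was 9.74-fold, *Mcm6* 4.49-fold and *Rrm2* 4.41-fold higher in the chambers, with adjusted p of 0.000274, 0.0137 and 0.0150 in the exact test. Without tags that begin with T the *Cdk1* ratio turned to 2.31 (adjusted p = 0.0292, exact test), and the *Rrm2* call was lost with the last NlaIII site alone.

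Between the OFT and the AVC no gene of the 37 was called by the edgeR exact test, beside 3.13% of the 12541 genes tested (1.24% higher and 1.88% lower). Only *Cdca8* had an unadjusted p under 0.05, beside 12.6% of all genes, with 14.6 TPM in OFT and 4.11 TPM in AVC (log2 ratio 1.82, interval 1.16 to 2.54, adjusted p = 0.257, exact test). TMM normalization, DESeq2 size factors and GC correction also called 0, though the share of all genes called under these settings is not given here. The 37 log2 ratios ranged from -0.74 for *Mki67* to 1.82 for *Cdca8* around a median of -0.09. *Mcm6* was 2.21 times as high in the OFT as in the AVC, a log2 difference of 1.15 (interval 0.99 to 1.31) that was not called. With a single library on each side these values do not show that the AVC and OFT express the genes alike.

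Between the ventricles and the atria again 0 of the 37 genes were called by the exact test, beside 6.27% of 10705 genes (3.47% higher and 2.8% lower), and 0 had an unadjusted p under 0.05, beside 20.1% of all genes. TMM normalization, DESeq2 size factors and GC correction called 0 as well, again without the share of all genes called under these settings. The median log2 ratio was 0.29 against 0.31 for all genes, and after TMM normalization it was -0.03. The 7 cyclins and kinases had all positive ratios, with a median of 0.90 and a range from 0.29 for *Ccnb2* to 1.02 for *Ccne1*, and 6 of the 7 lay above the median of all genes. *Cdk1* was at 969 TPM in ventricles and 489 TPM in atria, a log2 ratio of 0.99 (interval 0.91 to 1.06, adjusted p = 0.534, exact test). After TMM normalization the ratio of *Ccnb2* was -0.03 and the other 6 stayed positive.

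The *Twist1* null comparison asked whether loss of *Twist1* in the AVC went with a change in these genes. *Mcm6* and *Cdk1* were called higher in the null library and *Mcm5* lower, beside 8.99% of the 12963 genes tested, 5.06% higher and 3.93% lower. The 2 genes higher are 5.41% of the 37 and the 1 lower is 2.70%, shares close to those of all genes. The median log2 ratio of the 37 genes was -0.33 against -0.16 for all genes and -0.23 for those with tags on both sides, and after a TMM shift of 0.24 it was -0.10 against 0.08, with 2 genes called higher and 0 lower beside 6.26% and 3.06% of all genes. *Mcm6* was at 469 TPM in null and 80.7 TPM in AVC (5.82-fold, log2 ratio 2.54, interval 2.41 to 2.68, adjusted p = 0.0178, exact test). *Cdk1* was at 431 TPM in null and 82.3 TPM in AVC (5.23-fold, log2 ratio 2.39, interval 2.26 to 2.52, adjusted p = 0.0252, exact test). The *Cdk1* call was lost with GC correction, and its ratio was -0.42 without tags that begin with T and -0.18 with the last NlaIII site alone. *Mcm5* was at 44.2 TPM in null and 219 TPM in AVC, so that the AVC level was 4.94-fold higher (log2 ratio -2.30, interval -2.45 to -2.16, adjusted p = 0.0317, exact test), a call that TMM normalization did not keep.

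The remaining 34 genes were not called. Of them *Top2a* was 3.98-fold lower in the null (log2 ratio -1.99, adjusted p = 0.0673, exact test), though 1 of its 3 main tags was higher there, *Kif23* 3.79-fold lower (adjusted p = 0.0907, exact test) and *Ccne2* 3.65-fold lower (adjusted p = 0.0946, exact test). *Cdt1* was 3.15-fold higher (adjusted p = 0.140, exact test) and *Mcm7* 2.93-fold higher (adjusted p = 0.166, exact test). These 5 genes, with the 3 called, make the 8 with an unadjusted p under 0.05, 4 in each direction, beside 11.9% of all genes higher and 12.7% lower. By role the median log2 ratio was -0.43 for licensing and helicase genes, -0.67 for fork and nucleotide genes, -0.33 for cyclins and kinases, 0.45 for mitotic kinases, checkpoint and passenger genes, and -0.87 for spindle and chromosome surface genes. After TMM normalization these were -0.19, -0.43, -0.10, 0.68 and -0.63, so no role changed sign. Of the 8 mitotic kinase, checkpoint and passenger genes, 7 had positive ratios and *Cdc20* a negative one, and none was called.

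The tags of the 37 genes differed in base composition, and their ratios moved with it. Across the 37 genes the GC content of the tags and the log2 ratio had a Spearman coefficient of 0.46 for the AVC against the chambers and of -0.63 for the *Twist1* null against the AVC. Over all genes the coefficients were 0.22 and -0.17. Genes are not independent replicates, the points share their libraries, and the coefficients are given as a description. The 12 genes with a tag GC content under 30% had a median log2 ratio of -0.21 in the AVC comparison, where 2503 genes in the same range had 0.46, and of 0.89 in the null comparison, where 2575 genes had 0.37. *Cdt1* (7.0% GC), *Cdk1* (12.4%) and *Mcm6* (18.5%) had the lowest tag GC content of the 37, and all 3 were higher in the chambers and in the null than in the AVC. *Rfc4*, next in GC content at 18.5%, was at 25.5 TPM in the AVC and lower in both chambers, at 13.5 and 14.2 TPM. With a loess correction for GC content, *Mcm6* stayed lower in the AVC than in the chambers (adjusted p = 0.000242, likelihood ratio test of edgeR) and higher in the null (adjusted p = 0.0438), whereas *Cdk1* stayed lower in the AVC (adjusted p = 0.00529) and was not called in the null comparison (adjusted p = 0.131).

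**Figure D4:**
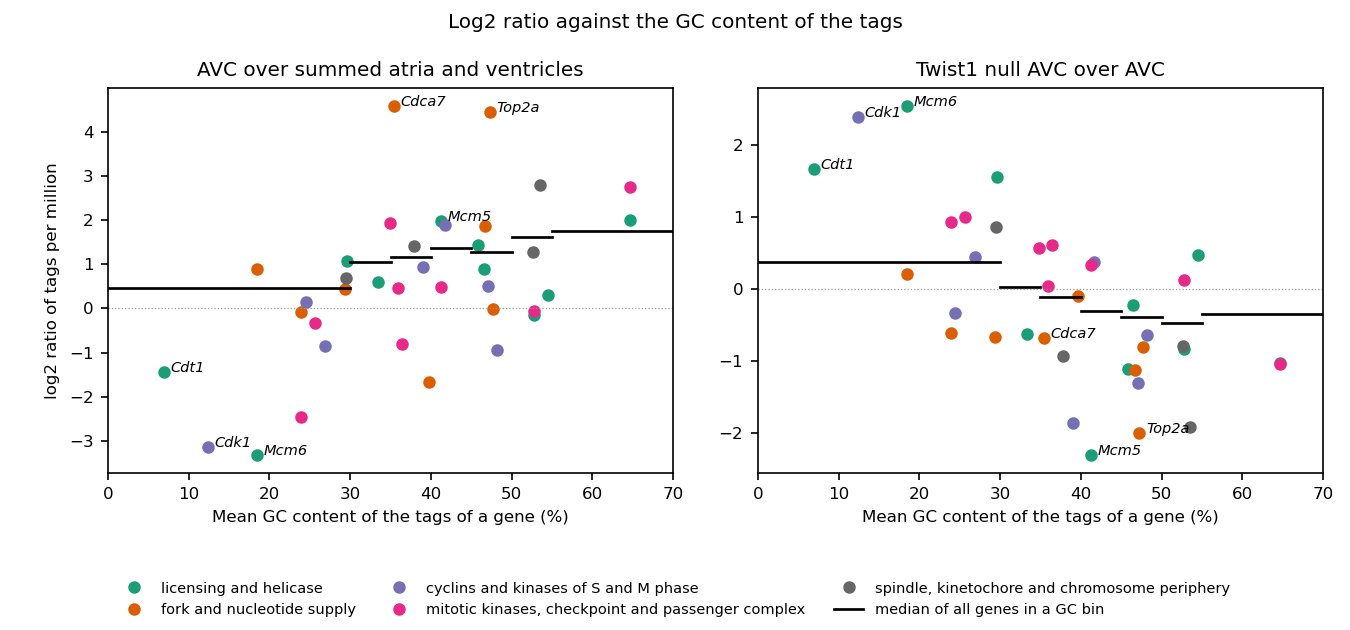
Log2 ratio of each of the 37 genes against the mean GC content of its tags in percent, for the AVC over the chambers and the *Twist1* null AVC over the AVC, with the median of all genes in each GC range as black lines (the last range runs to 100%). *Mcm6*, *Cdk1* and *Cdt1* sit at the low GC end of both panels, low in the first and high in the second.

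Several genes had more than 1 tag type, and each tag type gives its own ratio for the gene. Tag types at different sites need not come from the same transcript, and which transcripts gave them was not tested. The tags below are those of *Cdk1*, *Aurka* and *Ccna2* with the most tags, shown since their tags disagreed and chosen after their values were seen, with the NlaIII site in capitals.
Cdk1, site 11 from the end: CATGtaaatattattccatat
Cdk1, site 12 from the end: CATGgattcttcactcgttaa
Aurka, site 1 from the end: CATGtatgcaaacttgttaaa
Aurka, site 3 from the end: CATGctgcttttcctgattta
Ccna2, site 1 from the end: CATGcaaattaaccctttaaa
Ccna2, site 5 from the end: CATGtgtctatttggataatt
Ccna2, site 4 from the end: CATGagttgggaagcttgtgc
The first *Cdk1* tag was read at 66.5 TPM (AVC), 65.1 (OFT), 488 (atria), 968 (ventricles) and 421 (null). The second, with 6 G or C and in coding sequence, was at 12.8, 8.54, 0, 0 and 6.70 TPM. The 2 tags of *Cdk1* thus had opposite orders between the AVC and the chambers, and the second had its higher level in the wild-type AVC rather than in the null. The first *Aurka* tag was at 27.7, 39.3, 54.6, 71.7 and 91.1 TPM, and the second was at 21.2, 40.1, 0, 0 and 8.01 TPM. The first *Ccna2* tag was at 14.5, 18.6, 80.6, 106 and 33.3 TPM, the second at 34.7, 26.6, 7.93, 25.8 and 42.3 TPM, and the third at 14.8, 11.2, 4.93, 8.76 and 9.09 TPM. Only the first *Ccna2* tag was higher in both chambers than in the AVC, although the second holds the same 4 G or C bases as the first and the third holds 9.

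Of the 15 genes with at least 2 tag types that each held 50 tags over the libraries of the AVC comparison, 8 had tags with log2 ratios of opposite sign. The numbers were 8 of 15 genes for the OFT against the chambers and 13 of 19 for the *Twist1* null against the AVC, with a median distance between the highest and lowest tag of a gene of 1.69, 1.36 and 2.25 on the log2 scale. *Top2a* and *Mki67* gave the same direction with both tags in the AVC comparison, 1 of the *Top2a* tags being absent from the chambers. In the null comparison the *Top2a* tags fell on both sides of 0, with log2 ratios of -2.01 and -2.93 for these 2 and of 3.01 for another, which had 86 tags in the null and 0 in the AVC, with 5 filled in. The 2 tags of *Mcm6* also had the same direction, with log2 ratios of -3.33 and -1.77 against the chambers and of 2.47 and 4.02 in the null, although the second holds 7 G or C bases. The second tag rests on 10 tags in the AVC, and its log2 ratio in the OFT against the chambers was 0.07, where that of the first was -2.21. *Cdca7* and *Mcm5* rest on a single main tag, with 98.4% and 99.3% of their tags, and were not compared between tags. When tags that begin with T were left out, as the main *Cdk1* tag does, *Cdk1* turned from lower to higher in the AVC (log2 ratio 3.03, adjusted p = 0.00306, exact test), and in the *Twist1* null comparison its ratio was -0.42. With the last NlaIII site alone, which leaves out the same tag, the *Cdk1* ratios were 6.49 and -0.18, the first fitted against 0 tags in the chambers and so set in size by the prior count.

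**Figure D5:**
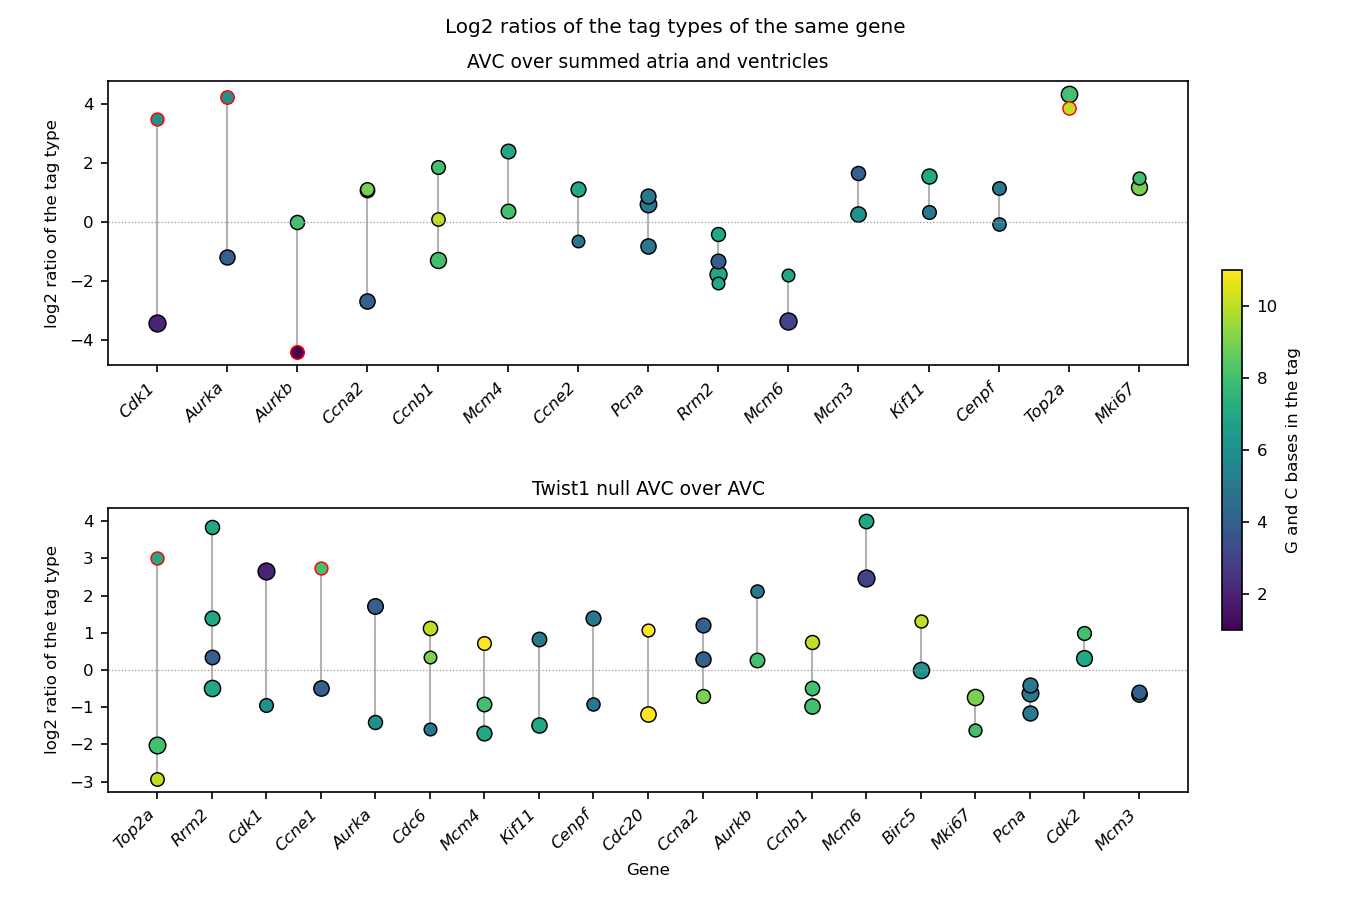
Log2 ratios of single tag types of the same gene, joined by a line, for the AVC over the chambers (15 genes) and the *Twist1* null AVC over the AVC (19 genes). Colour gives the number of G and C bases, size grows with the tag count, and a red edge marks a tag absent from 1 side, for which 5 tags per library were filled in; in *Cdk1*, *Aurka* and *Ccna2* the tags fall on both sides of 0, and in *Mcm6* and *Mki67* on the same side.

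Other genes of the same pathways were described by lists taken from general knowledge. Of 40 further replication genes, 12 were higher and 2 lower in the AVC than in the chambers, beside 35.6% and 5.53% of all genes, and their median log2 ratio of 0.58 lay below that of all genes, as for the 37. TMM normalization gave 4 higher and 10 lower, beside 19.4% and 11.9% of all genes. *Pold3*, a subunit of polymerase delta, and *Fen1*, the flap endonuclease of Okazaki fragments, had the smallest p of the list, and both were at 0 in the chambers. *Pold3* was at 19.4 TPM (AVC), 12.7 (OFT) and 8.48 (null), and its AVC level was at least 5.76-fold that of the chambers if each missing tag type is given 5 tags in each of the 2 chamber libraries. *Fen1* was at 8.72 TPM (AVC), 16.7 (OFT) and 8.25 (null). *Rpa2*, a subunit of the single-strand binding protein, was 15.1-fold higher in the AVC (adjusted p = 3.80e-05, exact test).

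Of 42 further mitosis genes, 10 were higher and 0 lower in the AVC than in the chambers in the exact test, beside 35.6% and 5.53% of all genes. After TMM normalization 4 were higher and 2 lower, beside 19.4% and 11.9%. The 2 genes of smallest p were *Cdca2*, a chromatin-bound phosphatase subunit at 9.22 TPM (AVC), 7.97 (OFT), 3.39 (null) and 0 in both chambers, and *Espl1*, which encodes separase, at 19.8 TPM (AVC), 13.5 (OFT), 1.71 (atria), 0 (ventricles) and 8.09 (null). Of 19 genes of E2F, RB and MuvB proteins, the regulators of cell cycle transcription, 8 were higher and 0 lower, and 4 and 2 after TMM normalization, beside the same shares of all genes. Their median log2 ratio of 1.63 lay above that of all genes, unlike that of the 37. *Lin37* had 9.71 TPM (AVC), 6.26 (OFT) and 3.78 (null) and was at 0 in the chambers, and *Foxm1*, which drives mitotic genes, was at 31.9 TPM (AVC), 38.7 (OFT), 3.00 (atria), 0 (ventricles) and 9.09 (null) (20.3-fold higher in the AVC than in the chambers, adjusted p = 1.91e-05, exact test).

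In the *Twist1* null comparison 3 of the 40 replication genes were called, all lower in the null, and 2 of the 42 mitosis genes, also lower, beside 3.93% of all genes called lower. *Rpa1*, the large subunit of the single-strand binding protein, was at 174 TPM (AVC), 156 (OFT), 41.1 (atria), 89.97 (ventricles) and 32.9 (null) (adjusted p = 0.0242, exact test). *Orc6*, of the origin recognition complex, was at 107, 83.3, 57.2, 84.3 and 22.1 TPM in the same order, and *Pola1*, the catalytic subunit of polymerase alpha, at 24.4, 23.4, 2.14, 5.68 and 3.93 TPM. *Anln*, the scaffold of the cleavage furrow, was at 121, 128, 19.9, 49.95 and 19.4 TPM in AVC, OFT, atria, ventricles and null (log2 ratio of null to AVC -2.63, adjusted p = 0.0161, exact test), and *Kif20b*, a kinesin of cytokinesis, was at 84.4, 114, 21.6, 29.8 and 13.8 TPM. All 5 were lower in both chambers than in the AVC, an order that their choice favours, since it used the same AVC library. Over all genes the median log2 ratio of the AVC to the chambers was 1.23. In the third list *E2f6*, a repressor of the E2F family, was higher in the null, at 221 TPM against 38.0 TPM in AVC, 45.2 in OFT, 82.5 in atria and 108 in ventricles (adjusted p = 0.0184, exact test). TMM normalization kept these calls except that of *Orc6*.

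Promoters of cell cycle genes are known to carry E2F sites, CCAAT boxes and the cell cycle homology region (CHR). Promoters were taken from RefSeq for GRCm38.p6, from 250 bases before to 50 bases after the start, and 32 of the 37 genes matched. *Mcm4*, *Ccna2*, *Ccne2*, *Aurkb* and *Gmnn* were not among them. The letters TTTNNCGC (E2F-like), TTTGAA (CHR) and CCAAT were searched on both strands, and matches may overlap. The E2F-like letters were in 31.2% of the 32 promoters and in 5.27% of all 27025 promoters of the same length, TTTGAA in 40.6% and 18.1%, and CCAAT in 78.1% and 37.9%. The E2F-like letters were in *Mcm3*, *Mcm5*, *Mcm6*, *Mcm7*, *Cdc6*, *Cdt1*, *Cdk1*, *Cdk2*, *Cdca7* and *Tyms*, and the CHR letters in *Aurka*, *Bub1b*, *Ccnb2*, *Cdc20*, *Cdca8*, *Cdk1*, *Cenpf*, *Kif11*, *Kif23*, *Mcm2*, *Mki67*, *Plk1* and *Top2a*.

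The promoters of the 2 genes with the highest and the 2 with the lowest log2 ratio in the AVC comparison are shown, with matches to any of the 3 motifs in capitals.
Top2a, chr11:99024140-99024439, minus strand: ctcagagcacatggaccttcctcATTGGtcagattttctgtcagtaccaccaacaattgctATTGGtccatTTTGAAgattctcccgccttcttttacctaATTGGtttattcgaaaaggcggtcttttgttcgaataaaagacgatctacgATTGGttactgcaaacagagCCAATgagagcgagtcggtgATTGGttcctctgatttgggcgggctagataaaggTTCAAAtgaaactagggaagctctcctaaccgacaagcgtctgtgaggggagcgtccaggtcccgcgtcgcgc
Cdca7, chr2:72475969-72476268, plus strand: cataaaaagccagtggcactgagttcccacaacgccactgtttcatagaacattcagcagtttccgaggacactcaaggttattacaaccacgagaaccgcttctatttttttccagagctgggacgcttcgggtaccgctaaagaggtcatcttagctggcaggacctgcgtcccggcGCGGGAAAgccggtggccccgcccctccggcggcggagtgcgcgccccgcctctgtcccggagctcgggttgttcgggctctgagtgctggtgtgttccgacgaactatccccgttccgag
Mcm6, chr1:128359656-128359955, minus strand: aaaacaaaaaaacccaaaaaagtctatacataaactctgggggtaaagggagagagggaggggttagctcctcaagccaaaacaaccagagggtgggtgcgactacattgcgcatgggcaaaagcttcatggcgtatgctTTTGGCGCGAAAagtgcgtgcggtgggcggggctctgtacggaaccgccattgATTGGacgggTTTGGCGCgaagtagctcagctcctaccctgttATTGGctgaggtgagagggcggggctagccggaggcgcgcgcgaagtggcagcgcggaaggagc
Cdk1, chr10:69352863-69353162, minus strand: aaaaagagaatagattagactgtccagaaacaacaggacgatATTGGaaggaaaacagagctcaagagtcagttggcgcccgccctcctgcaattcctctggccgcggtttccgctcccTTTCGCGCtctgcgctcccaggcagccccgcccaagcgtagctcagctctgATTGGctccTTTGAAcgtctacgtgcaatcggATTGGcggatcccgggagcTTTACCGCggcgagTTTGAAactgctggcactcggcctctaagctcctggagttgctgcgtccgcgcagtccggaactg
*Top2a* holds 6 CCAAT boxes, read as CCAAT or ATTGG, and 2 CHR matches, with no E2F-like match. *Cdca7* holds 1 E2F-like match and neither of the other motifs. *Mcm6* holds 3 E2F-like matches, 2 of which overlap on opposite strands, and 2 CCAAT boxes. *Cdk1* holds 2 E2F-like matches, 2 CHR matches and 3 CCAAT boxes and is the only 1 of the 32 with all 3 motifs, found in 0.340% of all promoters.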

How the data were processed

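Tag-seq libraries of 5 tissues were analysed, with 1 library per condition. The deposited files list raw counts of 17-base tags next to NlaIII sites, which the authors kept when a tag type was seen more than 5 times. Per the labels the authors worked with mm9, whereas here tags were matched exactly to virtual tags of GENCODE transcripts on GRCm38. To each transcript 20 adenines were added at the 3' end before its virtual tags were listed. Tags of 1 gene on the sense strand, 70.7% to 74.5% of HQ tags, were summed per gene, and tags shared by genes or antisense were left out. Depth differed from 4223810 to 12977237 HQ tags.

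Libraries were compared with edgeR 4.0.16 (R 4.3.3), using its exact test on both sides at a fixed dispersion of 0.12, which the study's methods give, with HQ totals as library sizes and a prior count of 0.125. P-values were adjusted by the Benjamini-Hochberg method over all genes tested, and genes with an adjusted p under 0.05 were called, where the study used unadjusted p. Intervals are 95% Clopper-Pearson intervals. The OFT against the AVC and the ventricles against the atria are not comparisons of the study's methods. Scripts ran in Python 3.11.15 with numpy 2.4.6, pandas 2.3.3 and scipy 1.17.1, DESeq2 1.42.0 gave alternative size factors, and the fits were tested on simulated data. The 19 alternative settings changed scaling, dispersion, tags and totals.

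The members and lists were chosen with earlier results of these data known. Values in every library are given for the 3 genes of highest mean level in each role for those called in the null comparison and for those whose ratio to the chambers had the opposite sign to the median of all genes, and in further lists for the genes called in the null comparison and the 2 of smallest p in the AVC comparison. Other genes named, *Rpa2* and the remaining called genes among them, were chosen after their values were seen.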

Additional observations from a re-analysis of the deposited data

Results flagged for a closer look

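Tags that the gene levels leave out gave a signal for 3 genes. Antisense tags of *Cdk2* reached 87.1 TPM in the ventricles, where its sense tags were at 27.2 TPM. The highest sense level of *Cdk2* was 110.1 TPM, in the null. *Tyms* antisense tags reached 5.13 TPM in the OFT, where its sense tags were at 3.99 TPM. The highest sense level of *Tyms* was 6.21 TPM, in the atria. Tags that *Tyms* shares with *Tyms-ps* reached 381 TPM in the OFT, and tags that *Mcm10* shares with *Cd300a* reached 6.83 TPM there. None of these was compared between libraries.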

How the results depend on the processing

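No paired analysis was possible because each condition had 1 library and no numbers pair the libraries. Of the genes called in the comparisons with the chambers, *Top2a* and *Cdca7* in the OFT were called under all 18 settings that gave a value, and *Mcm6*, *Top2a*, *Cdca7* and *Cdca8* in the AVC and *Mcm6* in the OFT and the null were lost only at a dispersion of 0.4. The number of the 37 genes called fell to 0 in the AVC comparison, 2 in the OFT comparison and 0 in the null comparison at a dispersion of 0.4, beside 5.07%, 6.26% and 0% of all genes. In the OFT comparison it was 14 with totals of all tags and 15 at a dispersion of 0.05, beside 48.4% and 59.1% of all genes. In the null comparison it was 9 at a dispersion of 0.05, 8 with unadjusted p, 5 with the last NlaIII site alone and 1 without tags that start with T, beside 31.8%, 24.6%, 13.9% and 9.34% of all genes. Between the OFT and AVC it was 1 at a dispersion of 0.05, with unadjusted p, and with the last site alone, beside 7.69%, 12.6% and 3.44%. Directions turned where main tags were left out. With the last site alone the log2 ratio of *Cdk1* was 6.49 in the AVC comparison and -0.18 in the null comparison. Without tags that start with T it was 3.03, 2.31 in the OFT comparison and -0.42 in the null comparison, that of *Aurka* was 10.24 in the AVC comparison, and that of *Plk1* was 6.87 (AVC) and 6.76 (OFT). Ratios fitted against 0 tags depend on the prior count. The lack of replicate libraries limits every comparison.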

Other observations

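Antisense tags were also read at *Cdk1*, at 10.2, 14.997, 74.6, 131 and 78.2 TPM in the AVC, OFT, atria, ventricles and null, and at *Top2a*, at 42.8, 70.4, 1.50005, 2.13 and 12.1 TPM.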
